A study of Mus musculus with 2 samples.

Results

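The ATP-binding cassette (ABC) transporters were set side by side in RNA from a part of the mouse aorta that is prone to atherosclerosis and a part that resists it. Members were all gene probes, control spots excluded, whose gene name on the array starts with Abc, a subfamily letter from a to g and a digit. This rule found 49 genes with 91 probes among 28658 gene names with 41174 probes. A gene was compared where the scanner software flagged a probe as well above background in the same RNA on both arrays. This held for 42 ABC genes with 71 probes and for 22811 genes with 32176 probes in all. The brightest such probe stands for its gene, and other probes are given for some genes only. The compared members were 12 of 15 genes of subfamily A, 9 of 10 of B, 7 of 10 of C, all 4 of D, the 1 gene of E, all 3 of F and all 6 of G.

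Both RNA pools came from the same apoE-/- mice, animals without apolipoprotein E that form arterial plaques. There were 6 mice aged 16 weeks (4 months), 3 males and 3 females, and no mice with apolipoprotein E and no treatment groups were part of the comparison. The prone segment, called arch, ran from the aortic root through the arch to 2 mm into the thoracic aorta, and the resistant segment, called thoracic, was the 6 mm that follow. Vessels were perfused with Triton X-100, a detergent, to take off the endothelium, and the pieces were lysed without sorting of cells. Equal extract volumes of 12 µl per mouse were pooled, and RNA integrity numbers lay between 7.5 and 7.7. The pools were hybridised against each other on 2 two-colour arrays. Array 1 had thoracic RNA in red (Cy5) and arch RNA in green (Cy3), and array 2 had the dyes exchanged. Both arrays repeat 1 measurement of 1 pool per segment, so no spread between mice is known and no p-value is given. Each ± is the SD between arrays (n = 2 arrays, technical), and each log2 ratio is arch over thoracic. Normalised signals are in intensity units after background correction, which adds an offset of 50, and loess normalisation between dyes.

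ABC transporters bind and hydrolyse ATP through paired nucleotide-binding domains, and most use it to move a substrate across a membrane. Abca1 and Abcg1 export cholesterol and phospholipid from cells to apolipoprotein A-I and to high density lipoprotein, and both are classical target genes of the liver X receptors, which sense oxysterols. In the artery wall they are best known for limiting cholesterol storage in macrophages and smooth muscle cells. Other subfamilies hold drug efflux pumps, mitochondrial and peroxisomal carriers, regulatory subunits of potassium channels, and the E and F proteins, which have no membrane domain and act at ribosomes.

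The 3 sequences below are the 250 bases before the RefSeq transcript start, 5′ to 3′ on the strand of the gene, of members that were at least 1.5-fold higher in arch. They are shown because 4 members passed that limit and 3 of them had an entry in the promoter table. Abcg1 was the other one. Coordinates are those of GRCm38.p6, and all 3 genes lie on the minus strand. Abca1 is at chr4:53159896-53160145, Abca8a at chr11:110095938-110096187 and Abcc9 at chr6:142702275-142702524. Capitals mark a match, on either strand, to an E-box (CACGTG), a GC box (GGGCGG) or a direct repeat of the kind bound by liver X receptors (GGTNA and GGTCA with 5 bases between them).
Abca1: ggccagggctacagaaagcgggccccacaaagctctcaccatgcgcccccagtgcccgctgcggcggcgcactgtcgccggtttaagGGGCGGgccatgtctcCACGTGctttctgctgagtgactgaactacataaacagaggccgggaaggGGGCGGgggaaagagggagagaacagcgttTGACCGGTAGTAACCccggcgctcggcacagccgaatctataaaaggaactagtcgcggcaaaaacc
Abca8a: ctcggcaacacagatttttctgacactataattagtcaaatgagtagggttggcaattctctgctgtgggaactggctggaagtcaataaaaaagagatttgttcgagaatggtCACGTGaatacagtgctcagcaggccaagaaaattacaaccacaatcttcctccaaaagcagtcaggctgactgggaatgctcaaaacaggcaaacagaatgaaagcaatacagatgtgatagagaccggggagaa
Abcc9: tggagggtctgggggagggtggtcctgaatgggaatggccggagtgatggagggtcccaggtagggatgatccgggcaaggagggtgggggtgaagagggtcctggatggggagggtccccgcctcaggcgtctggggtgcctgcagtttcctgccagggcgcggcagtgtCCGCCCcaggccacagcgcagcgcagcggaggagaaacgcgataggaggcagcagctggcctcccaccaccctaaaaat
The Abca1 sequence held the E-box 147 to 142 bases before the start, GC boxes at 163 to 158 and at 97 to 92, and the direct repeat at 67 to 53, which reads GGTTACTACCGGTCA on the opposite strand. No 2 of these motifs overlapped. The direct repeat was searched with letters that fit the element known in this promoter, so its presence is no finding. The Abca8a sequence held an E-box 136 to 131 bases before the start, and the Abcc9 sequence a GC box at 79 to 74 on the opposite strand. Of all 32851 promoters of this length in the table, 6.02% held the E-box, 32.7% the GC box and 0.177% the direct repeat. Among the 31 compared ABC genes with an entry, 5 held the E-box (Abca1, Abca15, Abca8a, Abcc4 and Abcf1), 16 the GC box and 1 the direct repeat. A gene counted if any of its promoters held the motif, while the percentages count single promoters, so the units are unlike. A match of letters describes these windows only.

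Most of the family lay close to equality. Of the 42 members, 31 were within 1.2-fold between arch and thoracic, 4 were at least 1.5-fold higher in arch and none was that much higher in thoracic. The 1.5-fold limit asked for a mean of at least 1.5-fold and, on both arrays, for the same RNA to be at least 25% higher. It was passed towards arch by 320 of 22811 genes (1.4%), beside 4 of 42 members (9.52%), and towards thoracic by 104 genes (0.456%). The 2-fold limit asked for a mean of at least 2-fold and, on each array, for at least 1.5-fold in the same direction. It was passed towards arch by 108 genes (0.473%), beside 2 of 42 members (4.76%), and towards thoracic by 33 genes (0.145%) and 0 members. The median log2 ratio was 0.07 over members and -0.01 over all genes. A ratio above 0 on both arrays was found for 24 members (57.1%) and for 32.4% of all genes, and a ratio below 0 on both for 7 members (16.7%) and 35.2% of all genes. Without loess normalisation of the dyes these shares fell over the whole array, to 15 members (35.7%) and 16.5% of all genes above 0, and to 1 member (2.38%) and 18.2% of all genes below. By subfamily the medians were 0.10 for A, 0.00 for B, 0.14 for C, 0.00 for D, -0.16 for the single E gene, 0.07 for F and 0.02 for G.

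**Figure D1:**
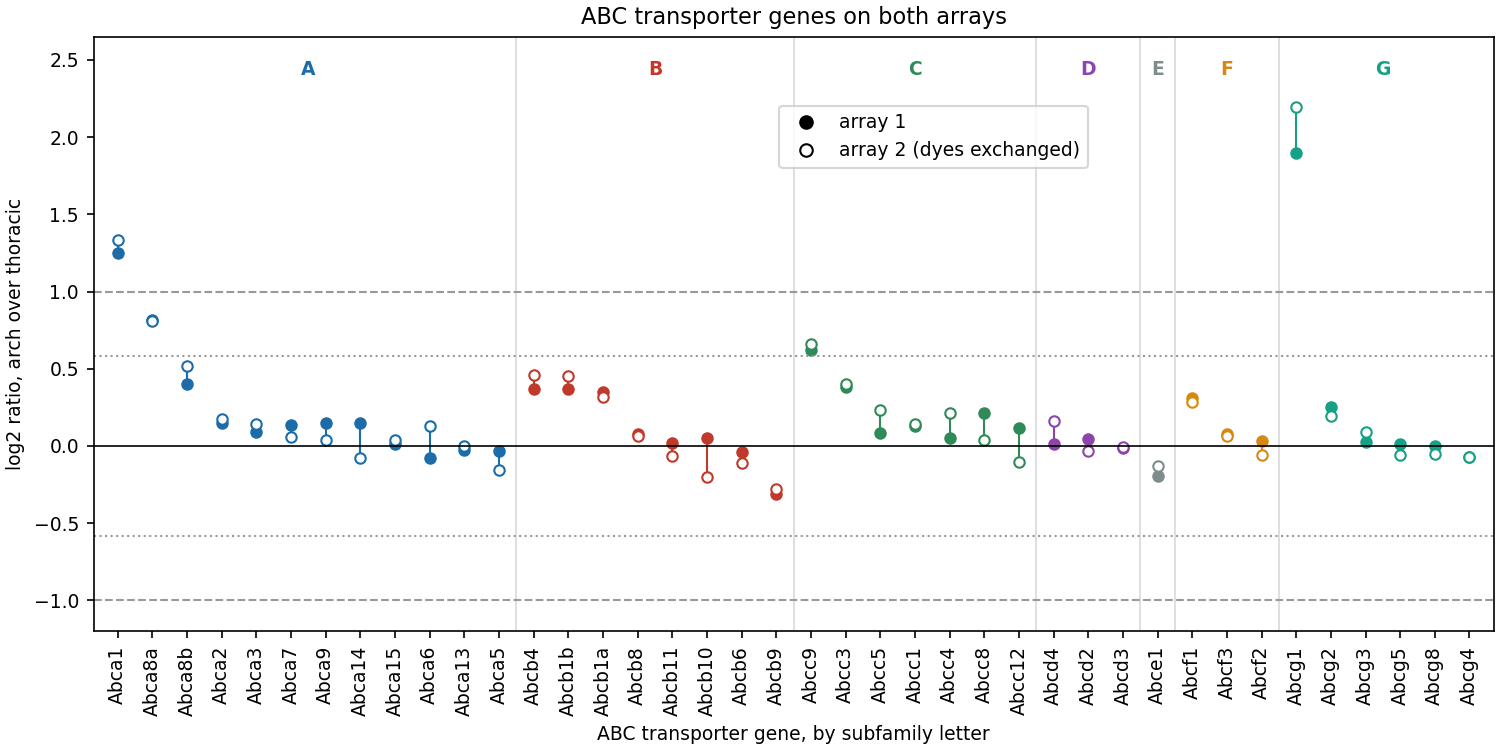
Log2 ratio of arch over thoracic (vertical axis) for 40 of the 42 compared ABC genes, sorted within subfamilies A to G; filled points are array 1, open points array 2, dashed lines 2-fold and dotted lines 1.5-fold. Abcg1, Abca1, Abca8a and Abcc9 stand above the upper dotted line on both arrays, and no gene reaches the lower one.

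The cholesterol exporters Abcg1 and Abca1 showed the widest differences of the family. Abcg1, which loads cholesterol onto high density lipoprotein, had normalised signals of 885 in arch and 237 in thoracic RNA on array 1, and of 1024 and 224 on array 2. The arch signal was the higher one on both arrays, at 4.13-fold (log2 ratio 2.05 ± 0.21), and Abcg1 ranked 10 of 22811 genes from the top. Abca1, which loads lipid-poor apolipoprotein A-I, had signals of 2248 in arch and 947 in thoracic RNA on array 1, and of 2406 and 953 on array 2. It was 2.45-fold higher in arch (1.29 ± 0.06) and ranked 48. Each gene was read by 1 probe that was well above background in both RNAs on both arrays and was not saturated. In pooled tissue, more cells of a type and more RNA per cell cannot be told apart.

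The other genes of subfamily G were near equality. Abcg2, an efflux pump for drugs and urate that also marks stem-like cells, had signals of 373 in arch and 312 in thoracic RNA on array 1 and of 363 and 317 on array 2 (0.23 ± 0.04), and its 2 probes read 0.17 and 0.23. Abcg4, a close relative of Abcg1 known from brain, had signals of 184 and 193 on array 1 and of 164 and 172 on array 2 (-0.07 ± 0.00), the lowest ratio of the subfamily. Abcg5 and Abcg8, the partners of the sterol exporter of liver and gut, are neighbours on chromosome 17 and were both at -0.02, with SDs of 0.05 and 0.04. Abcg3 was at 0.06 ± 0.05 and its thoracic RNA was well above background on only 1 of the 2 arrays. Of the family's sterol exporters, Abcg1 and Abca1 thus differed by over 2-fold while Abcg4, Abcg5 and Abcg8 were within 1.2-fold, and the last 3 had dim signals, the brightest being 193.

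**Figure D2:**
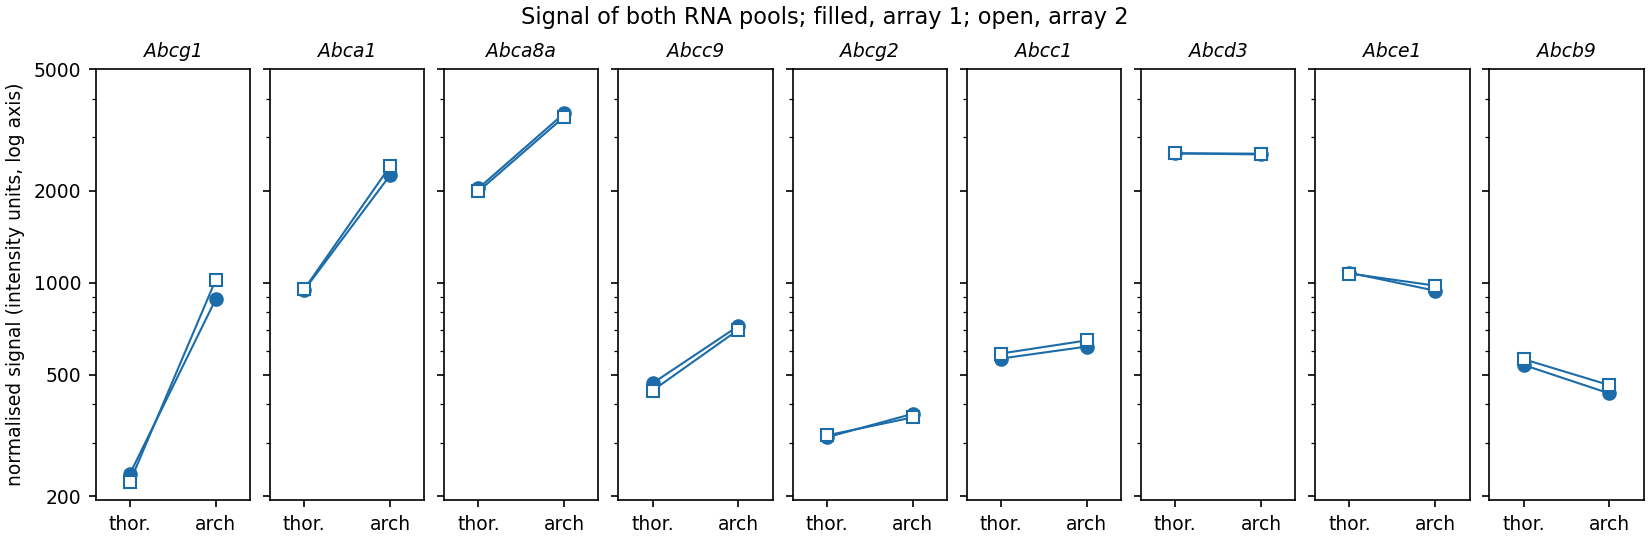
Normalised signal (log axis, intensity units) of 9 ABC genes in the thoracic and arch RNA pools; circles are array 1, squares array 2, and lines join the RNAs of one array. Abcg1, Abca1, Abca8a and Abcc9 go up from thoracic to arch on both arrays, Abcd3 is level, and Abce1 and Abcb9 go down; heights of different genes come from different probes and are not to be compared.

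The partner genes of cholesterol efflux were listed as the receptors that control Abca1 and Abcg1, other liver X receptor targets, and proteins that release, esterify or carry cholesterol. Of the 19 compared, 15 were above 0 on both arrays, 1 was below, 3 passed 1.5-fold towards arch and 0 passed 2-fold, with a median of 0.15. The 3 were Nceh1, a cholesteryl ester hydrolase (0.96 ± 0.02), Lipa, the lysosomal acid lipase (0.86 ± 0.01), and Arl4c, a small GTPase and known liver X receptor target (0.61 ± 0.07). A further probe read -0.02 for Lipa and 0.00 for Arl4c. The receptors themselves were at 0.07 ± 0.01 for Nr1h3, which encodes liver X receptor alpha, and 0.14 ± 0.13 for Nr1h2, which encodes the beta form. Other receptor targets were at 0.11 ± 0.03 for Srebf1, a lipogenic transcription factor, and 0.25 ± 0.04 for Mylip, which degrades the low density lipoprotein receptor. Also on the list were Lpcat3 at 0.21 ± 0.06 and Smpdl3a at -0.05 ± 0.11. Soat1, which esterifies cholesterol, was at 0.46 ± 0.04, with a further probe at -0.21. The lowest was Apoa1, which encodes the acceptor apolipoprotein, at -0.07 ± 0.01.

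Markers of macrophages were higher in arch in part. Of 21 compared markers 13 were above 0 on both arrays, 4 below, and 5 passed 2-fold (Gpnmb 2.34, Lgals3 1.65, Clec7a 1.52, Mpeg1 1.33 and Ctss 1.18), with a median of 0.22. Among the defining markers, Cd68 was at 0.51 ± 0.07, Csf1r at 0.07 ± 0.09 and Adgre1 at -0.06 ± 0.01. The summed signal of the 20 unsaturated markers was 61374 to 61945 in arch and 39518 to 40679 in thoracic RNA, and all 21 were well above background in both RNAs. The largest part of these sums was Ctss, at 23919 to 24268 in arch and 10266 to 11001 in thoracic RNA. The part of these cells in the ratios of Abcg1 and Abca1 was not tested.

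Marker RNA of some other cell types was also higher in arch, in several lists only in part. All 14 endothelial markers were well above background in both RNAs despite the detergent, 13 of 14 were above 0 on both arrays and 4 passed 1.5-fold (Kdr 1.24, Vwf 0.87, Emcn 0.78 and Ptprb 0.71), with summed signals of 3696 to 3705 in arch and 2536 to 2540 in thoracic RNA. Of 14 adventitial fibroblast markers 10 were above 0 on both arrays and 2 below (Ogn -0.16 and Clec3b -0.28), with a median of 0.23. Of these markers 3 passed 1.5-fold (Lum 1.05, Lama2 0.84 and Pdgfra 0.84), and a further Pdgfra probe read 0.12. The sum of 13 unsaturated ones was 125320 to 125682 in arch against 98451 to 98563. Of these sums Lum made up 35836 to 36532.8 in arch and 17408.5 to 17487.6 in thoracic RNA. Of 9 mesothelial markers 8 passed 1.5-fold and 7 passed 2-fold, and all 9 were above 0 on both arrays, with a median of 1.32. Their summed signal was 7947 to 8274 in arch and 3117 to 3161 in thoracic RNA. Of 12 heart muscle markers 5 passed 1.5-fold, with 7 above 0 on both arrays and 2 below. Of 8 brown fat markers 3 passed, with 6 above and 2 below (Ppargc1a -0.05 and Elovl3 -0.32). Of 10 adipocyte markers 0 passed, with 2 above and 5 below. Of 10 lymphocyte markers 1 passed, with 3 above and 4 below. The 14 smooth muscle markers, all well above background in both RNAs, lay between -0.37 (Itga8) and 0.29 (Actg2), and 3 of them (Acta2, Tagln and Myl9) were saturated. Their median was 0.17, with 6 above 0 on both arrays and 3 below, and further Itga8 probes read up to -0.09. The sum of the 11 unsaturated ones was 111475 to 114665 in arch and 114344 to 114422 in thoracic RNA. Of these sums Itga8 made up 30673 to 33625 in arch and 41177 to 41610 in thoracic RNA. What each of these cell types adds to an ABC gene's ratio was not tested.

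**Figure D3:**
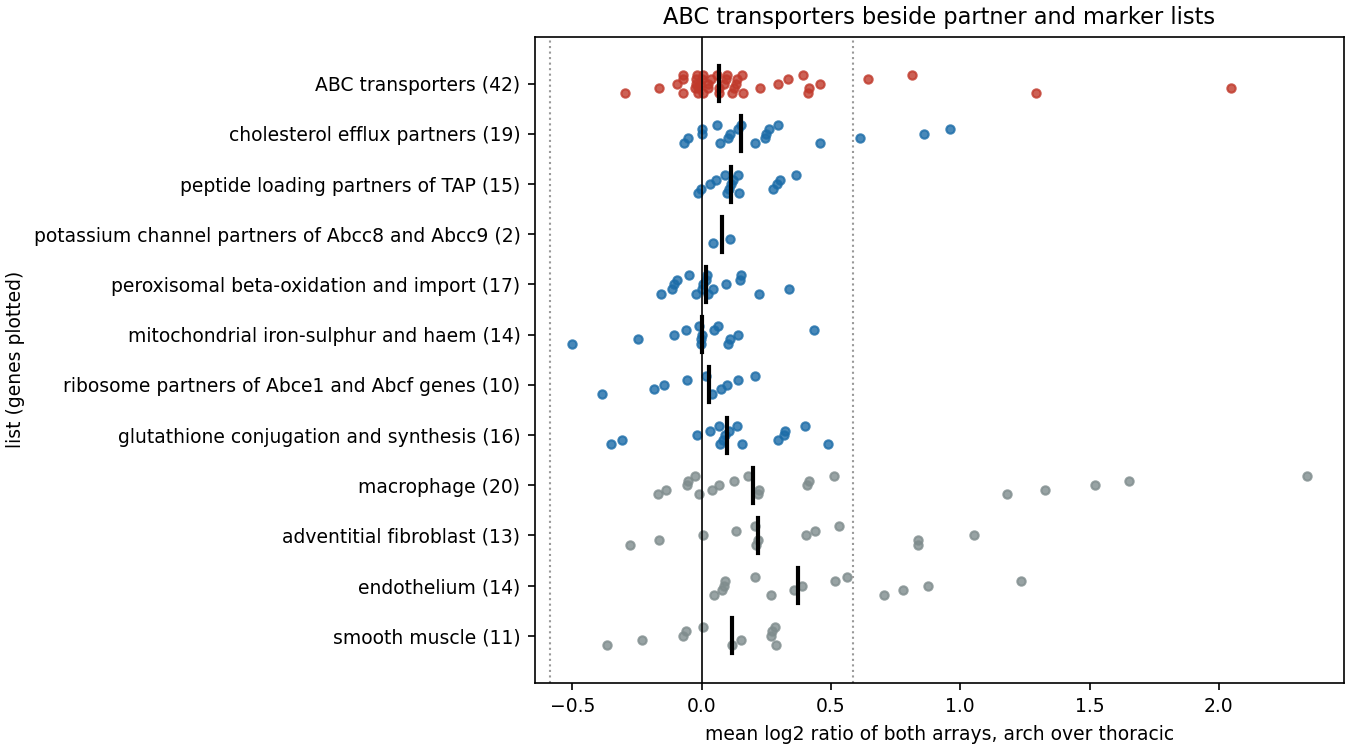
Mean log2 ratio of both arrays (horizontal axis) for each gene of the ABC family, 7 partner lists and 4 cell type marker lists, without saturated probes; points are genes, black bars medians, dotted lines 1.5-fold, and the number of genes plotted stands beside each name. The ABC family has a median near 0 with 4 genes past the right dotted line. Of the 4 marker lists plotted, that of macrophages alone spreads as far to the right as Abcg1. Marker lists of other cell types are not plotted, among them mesothelium (median 1.32) and heart muscle (up to 3.65).

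Subfamily A holds large lipid transporters, and 5 of its genes, Abca8b, Abca8a, Abca9, Abca6 and Abca5, stand side by side on chromosome 11. Abca8a, a full transporter whose relatives have been tied to cholesterol efflux, had signals of 3588 in arch and 2039 in thoracic RNA on array 1, and of 3495 and 1993 on array 2. It was 1.76-fold higher in arch, with log2 ratios of 0.82 and 0.81 on the arrays (0.81 ± 0.00), and ranked 173. Its neighbour Abca8b had signals of 171 and 130 on array 1 and of 176 and 123 on array 2 (0.46 ± 0.08), and a dimmer second probe read 0.05. On the brightest probes the ratio was smaller along the rest of the cluster. Abca9 had signals of 434 and 391 on array 1 and of 426 and 414 on array 2 (0.10 ± 0.08). Abca6 was at 0.02 ± 0.15, but a dimmer second probe read 0.30, and 0.64 without the offset. Abca5, the lowest of the subfamily, had dim signals of 74 and 76 on array 1 and of 69 and 77 on array 2 (-0.10 ± 0.09). The genes of this cluster are close paralogues, and whether a probe also binds the RNA of a neighbour was not tested.

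The remaining 6 genes of subfamily A lay between -0.02 and 0.16. Abca2, a sterol and sphingolipid transporter of late endosomes, was at 0.16 ± 0.02, but its second probe read -0.001. Abca3, which exports surfactant lipid in lung, was at 0.12 ± 0.04, with 3 probes between 0.01 and 0.13. Abca7, a phospholipid exporter, was at 0.10 ± 0.05. Abca14 was at 0.04 ± 0.16, Abca15 at 0.03 ± 0.02 and Abca13 at -0.02 ± 0.02. The retinal transporter Abca4, the epidermal lipid transporter Abca12 and Abca16 had no probe well above background, and no ratio is given for them. Abca14, Abca15 and Abca16 are neighbours on chromosome 7, and the 2 that were measured had signals between 70.6 and 101 in either RNA.

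In subfamily B the genes of the multidrug resistance cluster were above 0 on both arrays. Abcb1a, Abcb1b and Abcb4 stand side by side on chromosome 5. Abcb1a and Abcb1b encode the P-glycoproteins, which expel drugs and other hydrophobic compounds, and Abcb4 moves phosphatidylcholine. Abcb4 had signals of 358 in arch and 277 in thoracic RNA on array 1 and of 354 and 258 on array 2 (0.41 ± 0.06). Abcb1b had signals of 282 and 218 on array 1 and of 273 and 200 on array 2 (0.41 ± 0.06), and its 3 probes ranged from 0.10 to 0.41. All 3 genes were higher in arch, by 1.26-fold to 1.33-fold, and none passed 1.5-fold. Whether a probe for 1 of these related genes also binds the RNA of another was not tested.

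Abcb1a was the member whose value depended most on the background. Its signals were 84 in arch and 66 in thoracic RNA on array 1 and 85 and 68 on array 2, close to the offset of 50 that each value contains, which gave 0.33 ± 0.02. The thoracic RNA was well above background on 1 of 2 arrays. In the deposited processed signals, which contain no such offset, the log2 ratios were 1.44 and 1.47, and without the offset the mean was 1.03. The direction was the same in each case, and the size of the difference of this gene is not fixed by these data. Abcb1a is known from endothelium, and the endothelial sums given above were 1.46-fold higher in arch on both arrays. Single endothelial markers ranged from 0.05 (Tie1) to 1.24 (Kdr). The part of endothelium in the ratio of Abcb1a was not tested.

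Abcb9, a lysosomal peptide transporter, was the lowest member of the family. Its signals were 435 in arch and 539 in thoracic RNA on array 1 and 463 and 563 on array 2, so that thoracic was higher on both arrays, by 1.23-fold in the mean (-0.30 ± 0.02). The related Tap1 and Tap2, which carry antigenic peptides into the endoplasmic reticulum and have no Abc name, were at 0.12 ± 0.15 and 0.29 ± 0.13. They were counted with the peptide loading genes, of which 11 of 15 were above 0 on both arrays, 1 below and 0 past 1.5-fold, with a median of 0.11 between Canx at -0.01 and H2-D1 at 0.36.

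Mitochondrial genes of subfamily B lay near 0. Abcb10, which acts in haem synthesis, was at -0.07 ± 0.18, Abcb6, linked to porphyrin transport, at -0.07 ± 0.05, and Abcb8 at 0.07 ± 0.01. Of 14 partner genes of iron-sulphur and haem synthesis 6 were above 0 on both arrays, 4 below and 0 past 1.5-fold, with a median of 0.00. The ends of that list were Alas1, the first enzyme of haem synthesis, at 0.44 ± 0.11 and Slc25a37, the mitochondrial iron importer, at -0.50 ± 0.04, for which a further probe read 0.04. Abcb11, the bile salt export pump of liver, was at -0.02 ± 0.06, and Abcb5 had no probe well above background.

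In subfamily C the channel subunit Abcc9 led. It encodes the sulphonylurea receptor that forms the ATP-sensitive potassium channel of vascular smooth muscle with Kcnj8. Its brightest probe had signals of 723 in arch and 469 in thoracic RNA on array 1 and of 703 and 444 on array 2, so arch was higher on both arrays, by 1.56-fold in the mean (0.64 ± 0.03). The other 2 probes, of another RefSeq transcript, read 0.58 ± 0.01 and 0.53 ± 0.05. All 3 probes were higher in arch, and the median over them, 0.58, is just under 1.5-fold. The pore subunits were at 0.11 ± 0.09 for Kcnj8 and 0.04 ± 0.09 for Kcnj11. Abcc8, the receptor known from pancreatic beta cells, had dim signals of 98 and 85 on array 1 and of 89 and 87 on array 2 (0.12 ± 0.12). Abcc9 is also expressed in heart muscle. Of 12 heart muscle markers 7 were above 0 on both arrays and 2 below, Ryr2 at -0.14 and Myl3 at -0.16. Myl7, Tnnt2, Sln, Tnni3 and Myl4 passed 2-fold towards arch, and a further Sln probe read -0.01. The summed signal of all 12 was 28507 to 31804 in arch and 21966 to 23372 in thoracic RNA. Most of these sums was Actc1, at 20982 to 24135 in arch and 19187 to 20908 in thoracic RNA. The part of heart muscle in the ratio of Abcc9 was not tested.

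The multidrug resistance proteins of subfamily C export glutathione, glucuronide and sulphate conjugates. Abcc3 had signals of 177 in arch and 136 in thoracic RNA on array 1 and of 182 and 138 on array 2 (0.39 ± 0.01), but a dimmer second probe read -0.02. Abcc1, which also exports leukotrienes, had signals of 619 and 566 on array 1 and of 648 and 587 on array 2 (0.14 ± 0.01), with 3 probes between 0.08 and 0.14. Abcc5, an exporter of cyclic nucleotides, was at 0.16 ± 0.11, with further probes down to -0.06. Abcc4, another exporter of cyclic nucleotides known in smooth muscle, had signals of 154 and 149 on array 1 and of 169 and 145 on array 2 (0.13 ± 0.11), and its second probe read 0.30 on array 1 and -0.44 on array 2. Abcc12, the lowest of the subfamily, had signals of 74 and 68 on array 1 and of 63 and 68 on array 2 (0.00 ± 0.16), in opposite directions. Abcc2 and Abcc10 had no probe well above background. Abcc6, the gene whose loss causes ectopic calcification of elastic tissue, had 1 probe that was well above background in each RNA on 1 of 2 arrays only, and it was not compared.

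Genes of glutathione conjugation and synthesis, which supply substrates of these exporters, were compared for 16 members of the list. Of these, 13 were above 0 on both arrays, 2 below and 0 past 1.5-fold, with a median of 0.10. The highest was Gstm1, a glutathione transferase, at 0.49 ± 0.03, and the lowest Ggt5, a glutathione hydrolase that also acts on leukotrienes, at -0.35 ± 0.02, with a further probe at -0.07.

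Subfamily D is known for carrying fatty acids into peroxisomes, and its genes described here differed by less than 1.2-fold. Abcd3, the abundant peroxisomal membrane protein, had signals of 2632 in arch and 2652 in thoracic RNA on array 1 and of 2647 and 2655 on array 2 (-0.01 ± 0.00), a difference of under 1% on a probe far above background. Abcd2 was at 0.00 ± 0.06. Abcd4, which acts in lysosomal cobalamin export, had signals of 280 and 277 on array 1 and of 305 and 273 on array 2 (0.09 ± 0.10). Of 17 genes of peroxisomal beta-oxidation and import 5 were above 0 on both arrays, 4 below and 0 past 1.5-fold, with a median of 0.02 between Amacr at -0.16 and Crat at 0.34.

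The E and F genes act on the ribosome. Abce1, which splits ribosomes after termination, had signals of 943 in arch and 1079 in thoracic RNA on array 1 and of 979 and 1073 on array 2, lower in arch on both arrays (-0.16 ± 0.04). Without loess the arrays read -0.48 and 0.11, and a dimmer second probe read 0.08 on the main values. Abcf1, a partner of initiation factor 2, had signals of 567 and 458 on array 1 and of 558 and 458 on array 2 (0.30 ± 0.02), with a second probe at 0.17. Abcf3 was at 0.07 ± 0.01, and Abcf2 had signals of 282 and 276 on array 1 and of 233 and 242 on array 2 (-0.01 ± 0.06). Of 10 ribosome partners of these proteins 5 were above 0 on both arrays, 3 below and 0 past 1.5-fold, with a median of 0.03. The lowest was Pelo, the rescue factor that works with Abce1, at -0.38 ± 0.01. The highest was Eif3j1, an initiation factor subunit, at 0.20 ± 0.07, with further probes down to -0.13.

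Between arrays the log2 ratios of the 42 members correlated at 0.96 (Pearson) and 0.73 (Spearman), against 0.81 and 0.58 for all 22811 genes. These points share the arrays and the pools, and genes are not replicates. The median SD of a member was 0.05, and in 13 of 42 it exceeded the size of the mean ratio. The largest dye shift of a member, the mean ratio before array 1 was turned, was 0.15. It was taken after loess, which removes dye differences, so it cannot serve as a check of dye bias. Without loess the median SD of a member was 0.21. Of the 21 members with more than 1 compared probe, 13 had all probes within 0.15 of each other and 3 had probes at least 0.3 apart (Abca8b, Abcb1b and Abcc3). The other 21 rest on 1 probe, Abcg1, Abca1 and Abca8a among them.

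The deposited processed signals gave larger ratios for several members. With them 3 members passed 2-fold towards arch, beside 1.02% of all genes, and 7 passed 1.5-fold (16.7%), beside 2.92% of all genes. The added ones were Abcb1a at 1.46, Abca8b at 0.73 and Abcc3 at 0.60. Abcg1 was at 2.17 and 2.54 on the arrays, a mean of 2.35 against 2.05 on the main values. Abca1 was at 1.30 and 1.37, Abca8a at 0.83 and 0.82, and Abcc9 at 0.68 and 0.73, closer to their main values. Abcb9 was at -0.34. The 4 genes past 1.5-fold on the main values also passed it on the deposited ones.

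**Figure D4:**
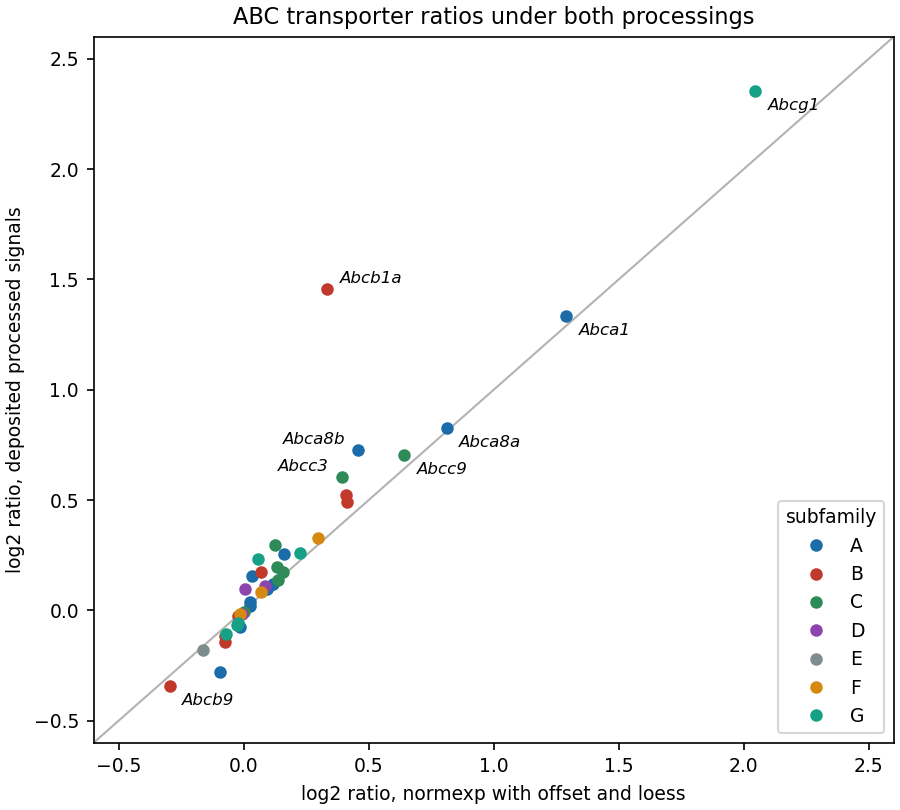
Mean log2 ratio of arch over thoracic for 40 of the 42 ABC genes from background-corrected signals with an offset and loess (horizontal axis) and from the deposited processed signals (vertical axis), coloured by subfamily; the line marks equal values. Most points lie on the line, and Abcb1a stands far above it, at 0.33 against 1.46.

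Depth and quality of the whole arrays bear on the dim members. Each array had 41534 gene spots, of which 76.5% to 82.6% were well above background in a given RNA. Median signals of 132.4 to 142.2 stood against means of 77.0 to 97.1 for negative control spots. Of the 42 members, 39 were well above background in both RNAs on both arrays and none sat on a saturated probe. With 2 arrays of 1 pool pair, small ratios have no replicate check over mice.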

How the data were processed

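RNA of 1 arch pool and 1 thoracic pool was read on 2 arrays with exchanged dyes. The scanner tables the authors deposited hold intensity values per spot (mean signals and local background medians), written by Agilent Feature Extraction. Its version is 8.1.1.1 per the file headers and 9.1.1.1 in the submitters' processing notes. The processed signals in the same deposited tables, intensity values as well, were background-subtracted and scaled between dyes by the authors' linear and lowess steps, per the file headers. The deposited log ratios are log10 values of red over green, and the deposited series table repeats them as log10 of arch over thoracic, with column medians of 0 and correlations of 1.00 with the turned scanner values.

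From the mean signals, limma 3.58.1 (R 4.3.3) corrected for local background (normexp, offset 50). Each array was normalised by loess with control spots at weight 0, and control and outlier spots were left out (8 and 5 gene spots marked as outliers). Spots of a probe were averaged, array 1 was turned, and both arrays were averaged. The brightest probe well above background in the same RNA on both arrays stood for its gene. Background correction, loess, the turning of array 1 and the 2-fold limit were also run on simulated arrays with known ratios and a constant dye shift. Probe averaging, the background filter, the choice of the brightest probe and the 1.5-fold limit were not part of that run. Gene names were updated through a RefSeq table (GRCm38.p6): 21706 spots matched by accession, 5476 by symbol and 4672 by synonym, and 9680 kept the file's name. Member genes kept the array's names; 3 further probes that RefSeq assigns to Abca12 and Abca13 carry other names on the array and were not counted. Promoters are RefSeq sequences; probe sequences and the build of the array's annotation are not given in the sources used here.

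Named genes were those past a limit, the highest and lowest of each subfamily, 15 listed transporters, and of each partner list the genes past a limit and both ends. Further members and partners are named to show the gene groups. The values of 2 compared members are not reported here, and both stay in the family's counts and medians. The members, lists and limits were chosen with earlier results of these data known. The alternatives were no offset, no background subtraction, median centring, deposited signals and series table, dim probes kept, both RNAs above background, the median over probes, saturated probes left out and each array alone.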

Additional observations from a re-analysis of the deposited data

How the results depend on the processing

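All 11 alternatives gave 2 or 3 ABC genes past 2-fold towards arch and 0 towards thoracic. The count past 1.5-fold was 4 on the main values, 7 with the Agilent processed signals, 7 with the deposited series table, 6 with no offset, 3 with the median over probes (Abcc9 at 0.58) and 4 under the other 7 alternatives, each array alone included. The share of all genes moved too, from 1.4% to 2.92% with the processed signals and the series table, 2.57% with no offset and 1.15% with the median over probes. Without the offset the added genes were Abcb1a at 1.03 and Abca8b at 0.69, both dim probes. The median over members, 0.07, was 0.10 with no offset, 0.051 with no background subtraction, 0.11 with the processed signals, 0.11 with the series table and 0.040 with dim probes kept. The sign of 12 members with ratios of at most 0.07 in size turned under 1 or more alternatives, and 0 of the members past 1.5-fold were among them. The subfamily B median, 0.00, was -0.07 on array 2 alone and 0.08 on array 1 alone. No paired analysis was possible because each segment is 1 pool and the dye swap already pairs the RNAs on each array.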
